A study of Mus musculus with 6 samples.

Results

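Nkx2-5, Gata4, Gata5, Gata6 and Mef2c are transcription factors of the developing heart, and their RNA was followed through every cell class of the mouse cardiogenic region at embryonic stage E10.5. The 5 genes were matched by symbol to 5 of the 32285 genes counted, and each symbol occurred 1 time. The tissue was dissected from C57BL/6 wild-type embryos sired by males with normal blood glucose, and the labels say that it also holds mesoderm outside the heart, ectoderm and endoderm. Mothers had been given vehicle (3 samples, normal blood glucose) or streptozotocin, which kills insulin-producing cells (3 samples, high blood glucose). How many embryos a sample holds is not given in the sources used here. Single cells were caught in droplets, and RNA was counted at its 3′ end by unique molecular identifiers (UMIs), each marking 1 captured molecule. A description field of the labels names a chromatin assay, whereas the titles, the library source and the kit name RNA, and the values were read as RNA counts.

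The counts came as 1 matrix in which a barcode suffix tells 6 libraries apart. No source used here pairs a suffix with a sample, so vehicle and streptozotocin could not be compared, the matrix was treated as 1 sample, and no test was run. Cells with at least 2500 genes and at most 10% mitochondrial UMIs were retained, 35962 of 53362 barcodes, with 4903 to 7136 cells and a median of 30533 to 35634 UMIs per library. Of these, 21124 passed the marker gate of 1 cell class, 2833 passed several and were left out as mixed, and 12005 passed none. No doublet caller was run. The libraries share barcode sequences: 2890 retained cells carried a sequence that also occurs in another library, and values without them are given where they differ. Without them 33072 of the 35962 cells stayed, but only 2359 of the 2861 cardiomyocytes.

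These factors sit at the centre of heart formation. NKX2-5 is a homeodomain protein, GATA4, GATA5 and GATA6 are zinc-finger proteins that bind the letters GATA, and MEF2C is a MADS-box protein. They bind to each other and to shared enhancers of heart muscle genes. Each also has work outside heart muscle: GATA factors in endocardium, epicardium and gut endoderm, MEF2C in endothelium, neural crest and blood cells, and NKX2-5 in pharyngeal endoderm. A class name below stands for cells like that class by its markers, and the 5 factors are in no marker list.

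A gate fixed by a mural cell list is called the Rgs5 and Myocd gate here (134 cells). The reason is that 3 of its 8 markers were enriched at least 2-fold. Its leading genes included Rgs5, Dlg2, Zfp804a, Armh4, Ntrk3, Myocd, Eln and Hand1. A gate fixed by an anterior heart field list is called the Isl1 and Tbx1 gate (1069 cells), because 411 of its cells (38.4%) had a UMI of Epcam, an epithelial adhesion gene. In the other ranked gates at least 6 markers were enriched 2-fold. All 16 gates of 50 or more cells were ranked.

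Sequences before annotated starts of transcription are shown because the factors are known to act on each other's regulatory DNA. By GENCODE M21 (GRCm38), Nkx2-5 lies at chr17:26838664-26845009 on the minus strand, Gata4 at chr14:63198922-63271692 (minus), Gata5 at chr2:180325133-180334699 (minus) and Mef2c at chr13:83504034-83667080 (plus). All 5 genes code for proteins. RefSeq windows of the same build (GRCm38.p6) were matched for Nkx2-5, Gata5 and Mef2c, and Gata4 and Gata6 are named only. Each run below is the 250 bases before an annotated start of transcription, 5′ to 3′ on the gene's strand. The Nkx2-5 window lies within the gene span given above, before a start inside that span. Capitals mark matches, on either strand, to GATA (GATA factors), AAGTG (core letters of the NKX2-5 site), the MEF2 motif (CTA and TAG, 4 bases apart) and CANNTG (E-box, bound by HAND and other bHLH proteins).
Nkx2-5, chr17:26841566-26841815, minus: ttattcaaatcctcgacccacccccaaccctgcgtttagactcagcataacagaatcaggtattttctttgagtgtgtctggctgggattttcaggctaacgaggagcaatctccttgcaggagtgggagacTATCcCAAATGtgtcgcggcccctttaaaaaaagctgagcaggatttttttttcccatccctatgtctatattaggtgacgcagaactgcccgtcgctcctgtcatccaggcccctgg
Gata5, chr2:180334680-180334929, minus: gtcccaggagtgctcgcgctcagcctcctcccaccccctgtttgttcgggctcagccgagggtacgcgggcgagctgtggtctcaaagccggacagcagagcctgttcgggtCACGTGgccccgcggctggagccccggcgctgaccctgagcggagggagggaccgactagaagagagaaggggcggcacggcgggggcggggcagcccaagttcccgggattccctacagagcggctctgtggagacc
Mef2c, 1 of 3 windows, chr13:83503784-83504033, plus: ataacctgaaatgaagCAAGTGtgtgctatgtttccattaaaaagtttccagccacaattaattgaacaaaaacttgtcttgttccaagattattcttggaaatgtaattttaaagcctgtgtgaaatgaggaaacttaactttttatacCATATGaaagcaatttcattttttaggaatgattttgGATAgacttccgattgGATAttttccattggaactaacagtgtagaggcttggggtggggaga

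The Nkx2-5 window held 1 GATA match, on the opposite strand, beside 1 CANNTG match. The Gata5 window held 1 CANNTG match. The Mef2c window held 2 GATA matches and 1 AAGTG match that overlaps 1 of its 2 CANNTG matches. Such matches are frequent: of 32851 windows, 53.6% held GATA, 40.7% AAGTG, 66.2% CANNTG and 3.20% the MEF2 motif. They describe letters and not binding.

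**Figure D1:**
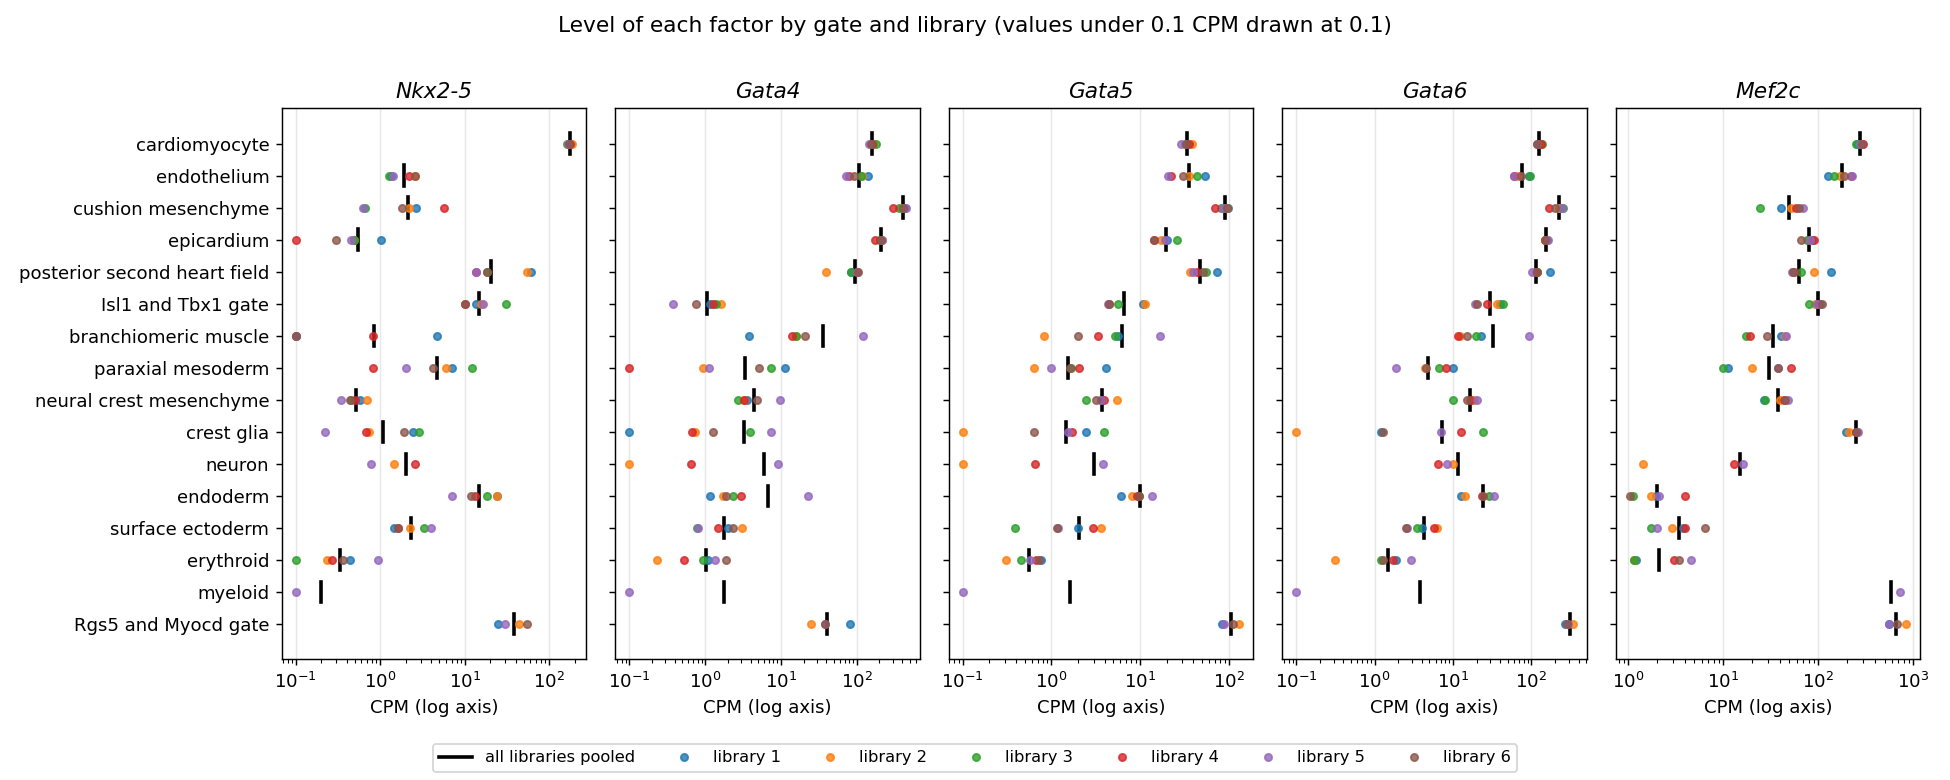
Level of each factor in 16 gates, in UMIs of the gene per 1000000 UMIs (CPM, log axis); the black tick pools all libraries and each dot is a library with at least 20 cells in the gate. Nkx2-5 is highest in the cardiomyocyte gate, Gata4 in cushion mesenchyme, and Gata5, Gata6 and Mef2c in the Rgs5 and Myocd gate.

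Nkx2-5 was the factor most concentrated in heart muscle. In the 2861 cardiomyocytes it reached 178, 188, 162, 178, 165 and 172 CPM in libraries 1 to 6, pooled 175 CPM (95% exact Poisson interval 173 to 177). All 6 libraries lay above every library of any other gate. The ratio to the next gate, the Rgs5 and Myocd cells at 38.6 CPM (32.6 to 45.3), was 4.53 (3.86 to 5.36), in the same direction in 4 of 4 libraries with enough cells. All intervals here cover counting error only.

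Below heart muscle and the Rgs5 and Myocd cells came the posterior second heart field gate, the Isl1 and Tbx1 gate and endoderm. The posterior second heart field gate, led by Cxcl13, Nkx6-1, Foxf1, Fendrr and Osr1, held 20.5 CPM (19.4 to 21.6) of Nkx2-5. Its libraries were uneven: 61.4 and 55.0 CPM in libraries 1 and 2 against 13.6 to 18.4 in the other 4, and without libraries 1 and 2 the level was 15.6 CPM (14.6 to 16.6). Libraries 1 and 2 had 141 and 103 cells in this gate, and the other libraries 278 to 699. The Isl1 and Tbx1 gate (14.9 CPM) and endoderm (14.8 CPM) did not differ beyond counting error, with a ratio of 1.01 (0.892 to 1.14). The value of the Isl1 and Tbx1 gate mixes unlike cells: those with an Epcam UMI held 24.5 CPM and those without 8.06. Paraxial mesoderm held 4.71 CPM, surface ectoderm 2.34, cushion mesenchyme 2.11, neurons 1.99, endothelium 1.91 and crest glia 1.08. Branchiomeric muscle held 0.847 CPM from 6 UMIs in 2 cells, and 0.166 CPM, from 1 UMI, without library 1. Epicardium (0.547 CPM), neural crest mesenchyme (0.512), erythroid cells (0.331) and myeloid cells (0.200, from 1 UMI) were lowest. Cardiomyocytes lay above epicardium in 6 of 6 libraries, and no fold is given because the epicardial share of cells with a UMI was close to background.

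Gata4, needed for cushion, epicardial and myocardial growth, was highest in cushion mesenchyme, the cells that will form valves. There it measured 439, 395, 358, 306, 445 and 404 CPM in libraries 1 to 6, pooled 403 (391 to 415). Epicardium followed with 203, 216, 204, 176, 218 and 212 CPM, pooled 207 (203 to 210). The libraries of these gates did not overlap, and the ratio was 1.95 (1.88 to 2.01). Cardiomyocytes came next at 159.9 CPM (158 to 162), below epicardium in 6 of 6 libraries.

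Endothelium (107 CPM) and the posterior second heart field gate (95.7 CPM) differed by a ratio of 1.12 (1.08 to 1.15), but endothelium was higher in only 3 of 6 libraries. The Rgs5 and Myocd cells held 40.7 CPM. Branchiomeric muscle held 36.3 CPM, of which library 5 decided much: it measured 120.4 CPM there and 3.78 to 20.96 in the other 5, and 14.1 CPM without library 5. Endoderm behaved likewise, with 22.6 CPM in library 5, 1.16 to 2.97 in the others and 2.11 without it. The remaining gates held 5.98 CPM (neurons), 4.42 (neural crest mesenchyme), 3.34 (paraxial mesoderm), 3.25 (crest glia), 1.804 (myeloid), 1.77 (surface ectoderm), 1.06 (Isl1 and Tbx1 gate) and 1.03 (erythroid). Single libraries decided 3 of these as well: without library 5 crest glia held 1.18 CPM, without library 1 neurons held 2.88, and without library 6 myeloid cells held 0.246, from 1 UMI.

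The GATA factors were higher in the posterior second heart field gate than in the Isl1 and Tbx1 gate. For Gata4 the levels were 95.7 and 1.06 CPM, higher in 6 of 6 libraries, and no fold is given because the lower level was near that of erythroid cells (1.03 CPM). Gata5 was 7.14-fold (6.15 to 8.34) and Gata6 3.96-fold (3.68 to 4.26) higher, each in 6 of 6 libraries. Mef2c went the other way, 1.57-fold (1.50 to 1.65) higher in the Isl1 and Tbx1 gate in 5 of 6 libraries. Nkx2-5 was 1.37-fold (1.23 to 1.54) higher in the posterior gate in 4 of 6 libraries.

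Gata5, a GATA factor of endocardium and endoderm, was highest in the Rgs5 and Myocd cells, with 83.7, 132, 88.2 and 112 CPM in libraries 1, 2, 5 and 6 and 106 CPM pooled (96.3 to 117). Cushion mesenchyme held 97.1, 93.0, 81.7, 70.7, 86.1 and 95.9 CPM in libraries 1 to 6, pooled 90.3 (84.8 to 96.0). These ranges overlapped, with a ratio of 1.18 (1.05 to 1.32) in the same direction in 3 of 4 libraries. The posterior second heart field gate followed at 47.5 CPM, then endothelium at 36.0 and cardiomyocytes at 33.9. The order of the last pair was not stable: cardiomyocytes were higher in 4 of 6 libraries, and 1.12-fold higher overall without library 1. Epicardium held 19.6 CPM and endoderm 9.92 CPM. The other 9 gates held 0.563 (erythroid) to 6.65 CPM (Isl1 and Tbx1 gate).

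Gata6, at chr18:11052064-11085635 (plus) and known for roles in the outflow tract and endoderm, was also highest in the Rgs5 and Myocd cells, at 265, 337, 289 and 283 CPM in libraries 1, 2, 5 and 6 and 306 pooled (289 to 324). Cushion mesenchyme held 231, 227, 252, 167, 244 and 199.7 CPM, pooled 225 (217 to 234). The ratio was 1.36 (1.27 to 1.46), in the same direction in 4 of 4 libraries. Epicardium (154 CPM), cardiomyocytes (126) and the posterior second heart field gate (116) followed. Cardiomyocytes and the posterior gate differed by 1.09-fold (1.06 to 1.12) in 5 of 6 libraries.

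Endothelium held 74.9 CPM of Gata6, branchiomeric muscle 32.3 (16.1 without library 5), the Isl1 and Tbx1 gate 29.2, endoderm 24.1 and neural crest mesenchyme 16.3. The other 6 gates held 1.50 (erythroid) to 11.6 CPM (neurons, 6.20 without library 1). In the annotation Gata5 overlaps Gata5os and Gata6 overlaps 1010001N08Rik, both on the opposite strand. Whether the counting used strand is not given in the sources used here, so reads of these pairs may not be separated.

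Mef2c had the widest reach outside the heart. In the Rgs5 and Myocd cells it measured 560, 847, 562 and 676 CPM in libraries 1, 2, 5 and 6, pooled 665 (640 to 692). Myeloid cells, where MEF2C is a known lineage factor, held 580.4 CPM (559 to 602) from 74 cells. The ratio of these gates was 1.15 (1.09 to 1.21), but in the only library with at least 20 cells of both, library 5, myeloid cells were higher. Without library 2 the ratio was 1.00 (0.946 to 1.07).

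Cardiomyocytes followed with 257, 290, 248, 296, 275 and 288 CPM of Mef2c in libraries 1 to 6, pooled 275 (272 to 278). Crest glia, Sox10 and Foxd3 cells, held 249 CPM (241 to 258), close behind at a ratio of 1.10 (1.07 to 1.14), and were lower in 5 of 6 libraries. Endothelium held 177 CPM, the Isl1 and Tbx1 gate 98.8, epicardium 80.9, the posterior second heart field gate 63.0 and cushion mesenchyme 49.9. Neural crest mesenchyme (37.9 CPM), branchiomeric muscle (33.5), paraxial mesoderm (30.5) and neurons (14.96) were lower. Surface ectoderm (3.41), erythroid cells (2.11) and endoderm (2.03) were lowest. In endoderm Gata6 exceeded its surface ectoderm level 5.60-fold, in 6 of 6 libraries, and Mef2c did so in 2 of 6.

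**Figure D2:**
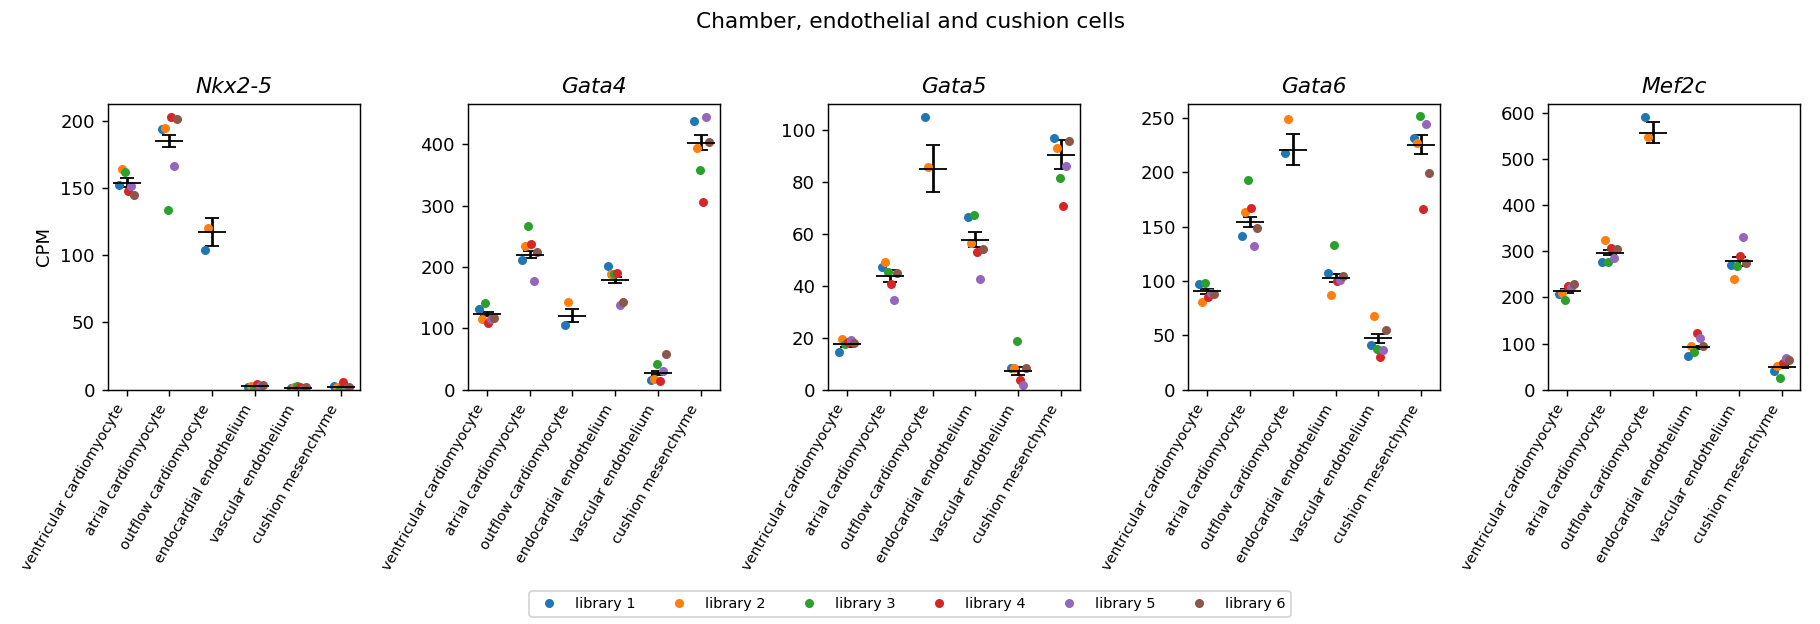
Level of each factor (CPM, linear axis from 0) in cells of 3 heart chambers or regions, 2 endothelial classes and cushion mesenchyme; bars are 95% counting intervals of the pooled value and dots are libraries with at least 20 cells. Atrial dots lie above ventricular dots in every library for Gata4, Gata5, Gata6 and Mef2c.

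Within heart muscle, the GATA factors and Mef2c were higher in atrial than in ventricular cells in every library. Ventricular cells (981, gated on Myl2, Irx4 and Hey2 among others) held 123 CPM of Gata4 and atrial cells (817, gated on Sln, Kcnj3 and Nr2f2 among others) 220.3 CPM, a ratio of 1.79 (1.73 to 1.85). Gata5 was at 17.5 and 43.6 CPM (2.50-fold, 2.30 to 2.71), Gata6 at 90.4 and 154 (1.70-fold, 1.64 to 1.77) and Mef2c at 214 and 297 (1.39-fold, 1.35 to 1.43). Ventricular and atrial libraries did not overlap for these 4 genes. The share of all genes that separate in this way was not computed. Ventricular cells were also deeper (median 56490 against 37070 UMIs), and the part of depth was not tested. Nkx2-5 differed least, at 154 against 185 CPM (1.20-fold, 1.16 to 1.24), and was higher in atrial cells in 5 of 6 libraries, with library 3 the exception (162 against 134).

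Outflow cells (110, gated on Rspo3, Sema3c and Isl1 among others) had another balance. Mef2c was 558 CPM (2.61-fold over ventricular, 2.49 to 2.73), Gata6 220.4 CPM (2.44-fold, 2.27 to 2.61) and Gata5 84.8 CPM (4.86-fold, 4.29 to 5.49), each higher in 2 of 2 libraries with enough cells. Nkx2-5, at 117 CPM, was lower than in ventricular cells by a ratio of 0.760 (0.692 to 0.832), but this reversed when 4 markers were asked for. Gata4 (120.2 CPM) did not differ from ventricular cells beyond counting error (ratio 0.978, 0.891 to 1.07). Outflow cells and the Rgs5 and Myocd gate shared leading genes, Rgs5, Dlg2, Ntrk3 and Pik3c2g among their first 10. A further 832 cardiomyocytes passed several of these gates and were left out of the chamber values.

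Among endothelial cells that passed only the endocardial or only the vascular gate, the factors differed between the gates. Endocardial cells (644, Nfatc1 and Npr3 among the markers) held 179 CPM of Gata4 against 27.3 in vascular cells (309, Sox17 and Gja4 among the markers), a ratio of 6.56 (5.87 to 7.35). Gata5 was 8.23-fold higher (57.7 against 7.01 CPM, interval 6.62 to 10.4) and Gata6 2.18-fold (102 against 47.0 CPM, 1.99 to 2.39). Mef2c was the reverse, 278 CPM in vascular and 91.8 in endocardial cells, 3.03-fold (2.88 to 3.19). Each direction held in 6 of 6 libraries. Nkx2-5 was low in both (2.38 and 1.48 CPM) with a ratio of 1.60 whose interval (0.941 to 2.87) includes equal levels. A further 426 endothelial cells passed both of these gates and 494 passed neither, and all were left out of these values. At full depth 65.0% of the cells that passed both held Gata4, Gata5 and Gata6 together, and 4.45% of those that passed neither. The endocardial share was 67.5% and the vascular share 7.44%.

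Cushion mesenchyme arises in part from endocardium. Against endocardial cells it held 2.25-fold more Gata4 (2.16 to 2.34), 2.20-fold more Gata6 (2.09 to 2.32) and 1.56-fold more Gata5 (1.45 to 1.69). Mef2c was lower, at a ratio of 0.544 (0.496 to 0.596). All 4 directions held in 6 of 6 libraries.

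The share of cells with a UMI was then read for each factor, with erythroid cells, whose lineage uses Gata1, as the background of free RNA. Of cardiomyocytes (median 44791 UMIs), 88.2% had a UMI of Nkx2-5, 94.2% of Gata4, 68.7% of Gata5, 96.6% of Gata6 and 98.5% of Mef2c. In erythroid cells (median 65438 UMIs) the shares were 1.16%, 2.18%, 1.90%, 2.92% and 5.44%. With each cell thinned to 20000 UMIs, the cardiomyocyte shares were 85.9%, 88.7%, 46.8%, 87.4% and 96.99%, and the erythroid shares 0.620%, 0.896%, 0.620%, 1.38% and 2.41%. The epicardial share for Nkx2-5, 1.86% at a median of 46710.5 UMIs, was close to this background and is not read as expression.

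At full depth most heart muscle cells held RNA of all 5 factors at once. The share was 57.7% (1652 of 2861, exact binomial interval 55.9 to 59.6), from 55.5% to 60.9% over the 6 libraries. It was 30.8% (29.1 to 32.6) at 20000 UMIs and 1.85% at 5000 UMIs, so it depends on depth. At 20000 UMIs 78.3% of cardiomyocytes held at least 4 factors and 1 cell held none. The commonest combination there lacked only Gata5 (33.7% of 2662 cells), followed by all 5 (30.8%) and all but Nkx2-5 (6.35%).

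**Figure D3:**
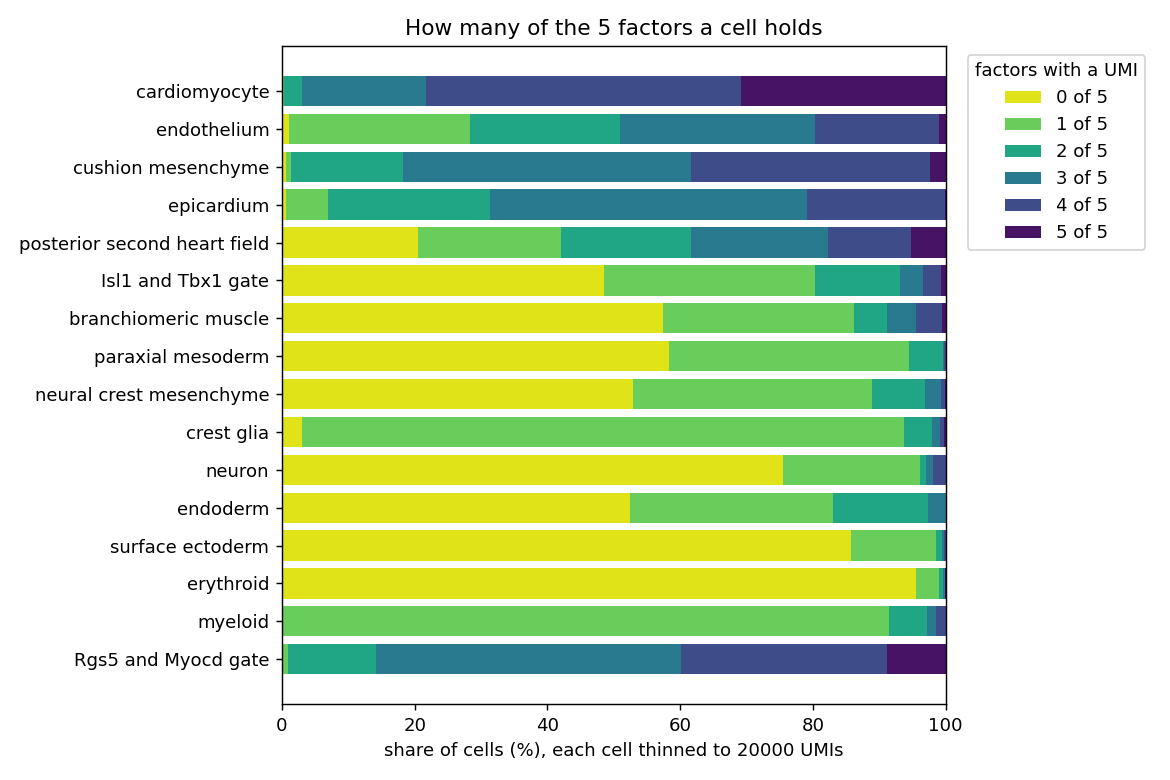
Share of cells in each gate that hold a UMI of 0 to 5 of the factors, after thinning each cell to 20000 UMIs and leaving out shallower cells. Cardiomyocytes reach all 5 factors in 30.8% of cells, and 95.6% of erythroid cells hold none.

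Outside heart muscle, complete sets were scarce. At 20000 UMIs all 5 factors were found in 8.85% of the Rgs5 and Myocd cells (10 of 113; 5.38%, or 5 of 93, without library 6), 5.17% of the posterior second heart field gate (94 of 1818), 2.37% of cushion mesenchyme (7 of 295), 0.953% of endothelium (16 of 1679), 0.707% of the Isl1 and Tbx1 gate (5 of 707) and 0.0816% of epicardium (1 of 1225). They were also in 1 of 181 branchiomeric muscle cells, 1 of 332 crest glia and 2 of 4471 neural crest mesenchyme cells. Erythroid cells, the background, held 0.0689% (1 of 1451), so the epicardial and neural crest mesenchyme shares are not read as co-expression. The counts of 1 cell in branchiomeric muscle and crest glia are too few to read. In endoderm all 5 were in 0 of 1323 cells, with an exact upper limit of 0.278% (0.227% from a limit of 3 counts). The product of the single shares there, 0.00094%, is too small for this count to say whether the factors share cells. Gata4, Gata5 and Gata6 together were in 69.2% of cushion cells, 44.0% of endocardial cells, 38.0% of cardiomyocytes, 26.9% of epicardium and 25.8% of the posterior gate. Crest glia (90.4%) and myeloid cells (91.4%) mostly held Mef2c alone.

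Sharing of cells was compared with what single shares give. If factors fell independently, the share with all of a set would be the product of their single shares. In cardiomyocytes at 20000 UMIs, 30.8% held all 5 and the product was 30.2%, with the share above the library's own product in 5 of 6 libraries. Gata4, Gata5 and Gata6 together were above it in 6 of 6. Single shares were so high there that pairs had little room: Nkx2-5 with Mef2c could lie only between 82.9% and 85.9%, so small gaps say little about sharing and are not set against other gates. In the posterior second heart field gate, 5.17% held all 5 against a product of 0.629%, and the share was above the library's own product in 6 of 6 libraries. There 28.7% held Gata4 with Gata5 (product 17.03%), 34.3% Gata4 with Gata6 (25.02%) and 10.1% Nkx2-5 with Mef2c (5.91%). Gata4 with Gata5 exceeded the product in 6 of 6 libraries and Nkx2-5 with Mef2c in 5 of 6. Nkx2-5 with Gata4 (6.88%) was near its product (6.19%). In the Isl1 and Tbx1 gate 8 of 10 pairs also lay above their product beyond the interval, such as Gata6 with Mef2c (16.3% of cells, product 7.93%) and Gata5 with Gata6 (5.37%, product 1.50%). Nkx2-5 with Mef2c did not (4.95%, product 5.17%). The Gata4 pairs among the 8 rest on 6 to 9 cells each, because 14 of 707 cells had a Gata4 UMI. In this gate 5 cells held all 5 factors, and Gata4 was near its erythroid level.

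In endothelium the GATA factors met in the same cells more often than their product, and Mef2c met them slightly less often. Gata4 with Gata5 was in 32.6% of cells (product 21.8%), above the product in 6 of 6 libraries. Gata4 with Mef2c was in 42.1% (product 46.2%), below it in 6 of 6 libraries. Of Gata4-positive endothelial cells 74.4% had a Mef2c UMI, and of the others 91.2%. Within endocardial cells both gaps lay inside the counting interval but kept their direction in most libraries. Gata4 with Gata5 was in 54.0% of them (49.97 to 58.0, product 51.1%), above the product in 5 of 6 libraries. Gata4 with Mef2c was in 57.6% (53.6 to 61.6, product 59.3%), below it in 6 of 6. In endoderm 3 of 10 pairs lay above their product beyond the interval and 2 below. Those above were Gata4 with Gata5 (2.95% of cells, product 1.03%), Gata4 with Gata6 (3.70%, product 1.81%) and Gata5 with Gata6 (8.54%, product 4.34%), and the 3 together exceeded it in 6 of 6 libraries. Library 5 raised the pooled share of Gata4 with Gata5, at 7.19% of its 306 cells against 0.667% to 2.29% in the others. That pair was above the library's own product in 6 of 6. The 3 factors together were in 0.571% to 1.41% of the 150 to 284 cells of each of these other libraries. Outside library 5 both shares rest on few cells per library, so their direction by library says little. Those below were Nkx2-5 with Gata4 (0.151% of cells, product 0.989%) and Nkx2-5 with Gata5 (1.44%, product 2.36%). Nkx2-5 with Gata4 was in 2 of 1323 cells and above the product in 0 of 6 libraries. With products of 0.302% to 1.13% in 150 to 306 cells per library, that count of libraries says little. The part of a mixture of cell classes within a gate was not tested.

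**Figure D4:**
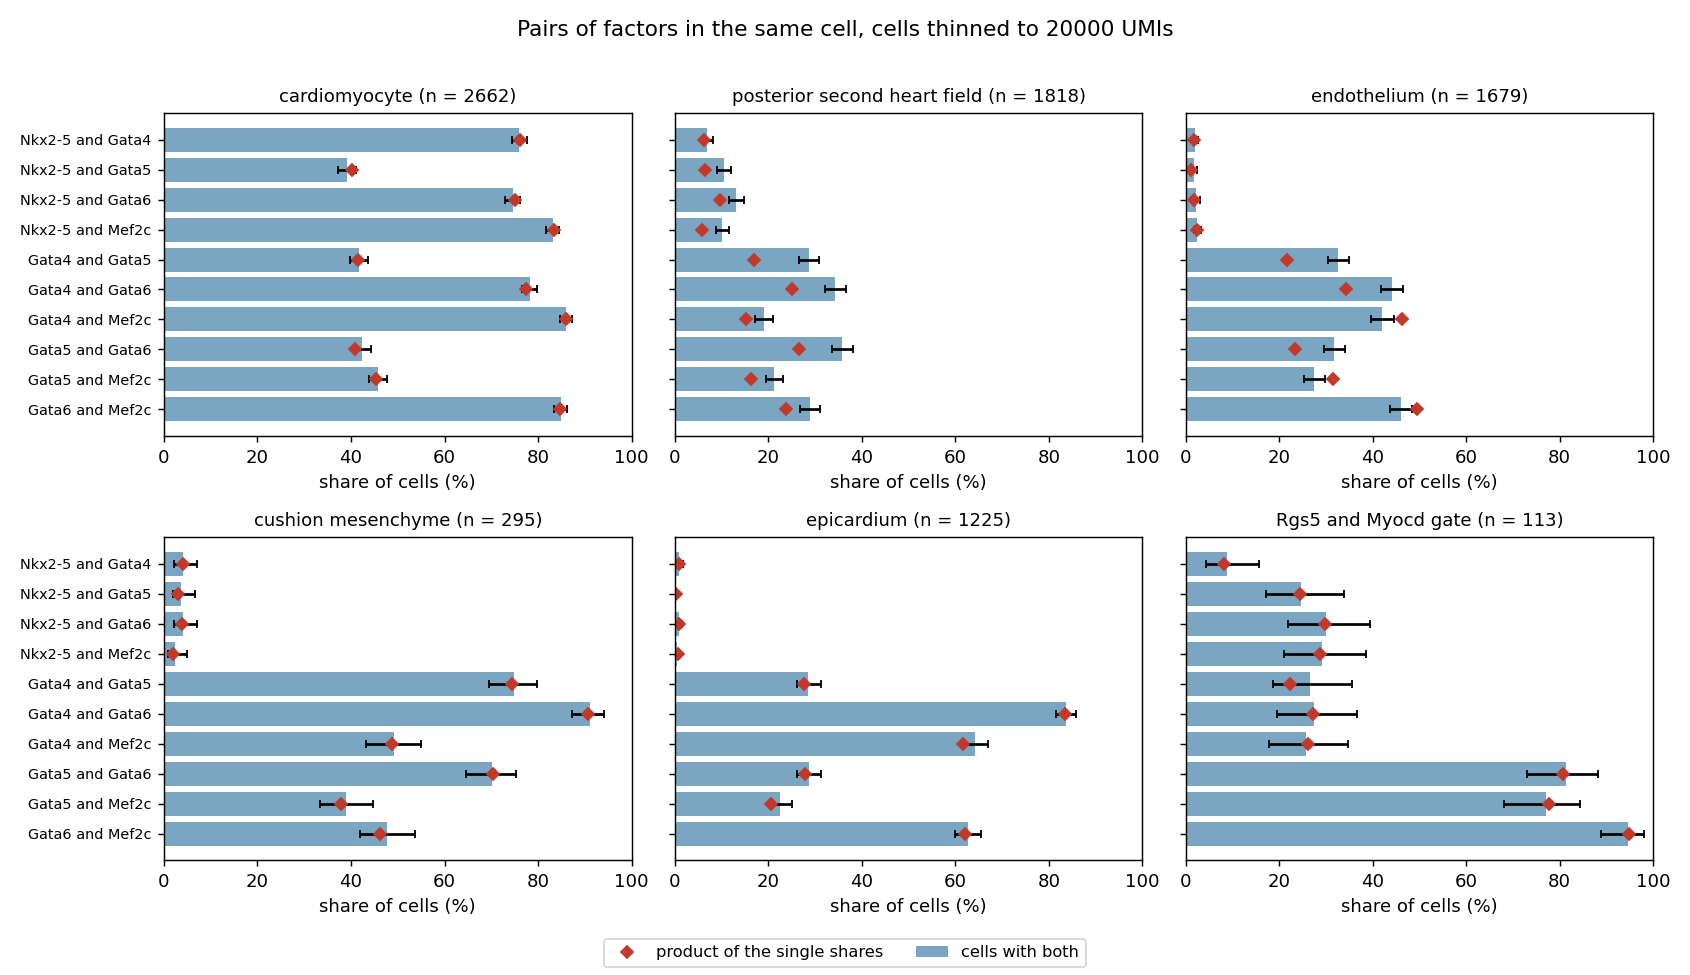
For 6 gates, the share of cells with UMIs of both factors of a pair (bars, with 95% exact binomial intervals) and the product of the single shares (red diamonds), cells thinned to 20000 UMIs. In the posterior second heart field gate 9 of 10 bars exceed their diamond beyond the interval, and in cardiomyocytes, where high single shares leave little room, the diamonds lie at the bar ends.

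Some heart muscle cells had no Nkx2-5 UMI, and these held more RNA of sinus venosus genes and less of chamber genes. Of 739 atrial cardiomyocytes with at least 20000 UMIs, 142 (19.2%) had none, from 15 to 33 cells per library. The genes below were chosen after values were seen. Shox2, a homeobox gene of the sinus venosus, was at 587 CPM in them and 131 in the other 597 cells (4.47-fold, 4.26 to 4.70). Hcn4, the pacemaker channel, was at 125 against 25.8 CPM (4.84-fold, 4.33 to 5.40). Tbx18, which marks sinus horn muscle, was at 179.8 against 11.4 CPM (15.7-fold, 13.8 to 17.9), and Isl1 at 102 against 21.2 CPM (4.81-fold, 4.26 to 5.42). Smoc2, which encodes a matrix protein, was at 366 against 15.7 CPM (23.3-fold, 20.99 to 25.97). These 5 genes were higher in 4 of 4 libraries with enough cells. Shox2 and Smoc2 were already among the leading genes of the whole atrial gate, and Isl1 is a marker in the outflow list.

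Chamber genes showed the opposite. Nppa, the atrial peptide gene and a known target of NKX2-5 and GATA4, was at 5.89 CPM in cells without Nkx2-5 and 1442 in cells with it, and Gja5, a chamber gap-junction gene, at 0.406 (2 UMIs; interval 0.0492 to 1.47) against 21.2 CPM. Tbx3, a conduction system gene that encodes a repressor, did not differ beyond counting error (ratio 0.810, 0.633 to 1.03).

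The other factors were not lost with Nkx2-5. In the same cells Gata4 was at 308 against 202 CPM (1.52-fold, 1.44 to 1.61), Gata6 at 211 against 142 (1.49-fold, 1.39 to 1.59) and Mef2c at 385 against 279 (1.38-fold, 1.31 to 1.45), each higher in 4 of 4 libraries. Gata5 did not differ beyond counting error (ratio 1.01, 0.868 to 1.17). The cells without Nkx2-5 were shallower (median 32064 against 41393 UMIs) and held less of the cardiomyocyte marker list (median 228 against 462 UMIs per 10000). The part of depth and of that list in these values was not tested. Over all cardiomyocytes of that depth, 252 of 2662 (9.47%) had no Nkx2-5 UMI. Shox2 was 12.6-fold higher in them (12.1 to 13.1) and Hcn4 8.12-fold (7.53 to 8.76), in 6 of 6 libraries. Unlike in atrial cells, Gata5 was 1.55-fold higher (1.40 to 1.71; 6 of 6) and Tbx3 1.18-fold (1.01 to 1.38; 5 of 6). By gate, 142 of these 252 cells were atrial, against 597 of the 2410 with an Nkx2-5 UMI. The part of chamber in these folds was not tested.

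**Figure D5:**
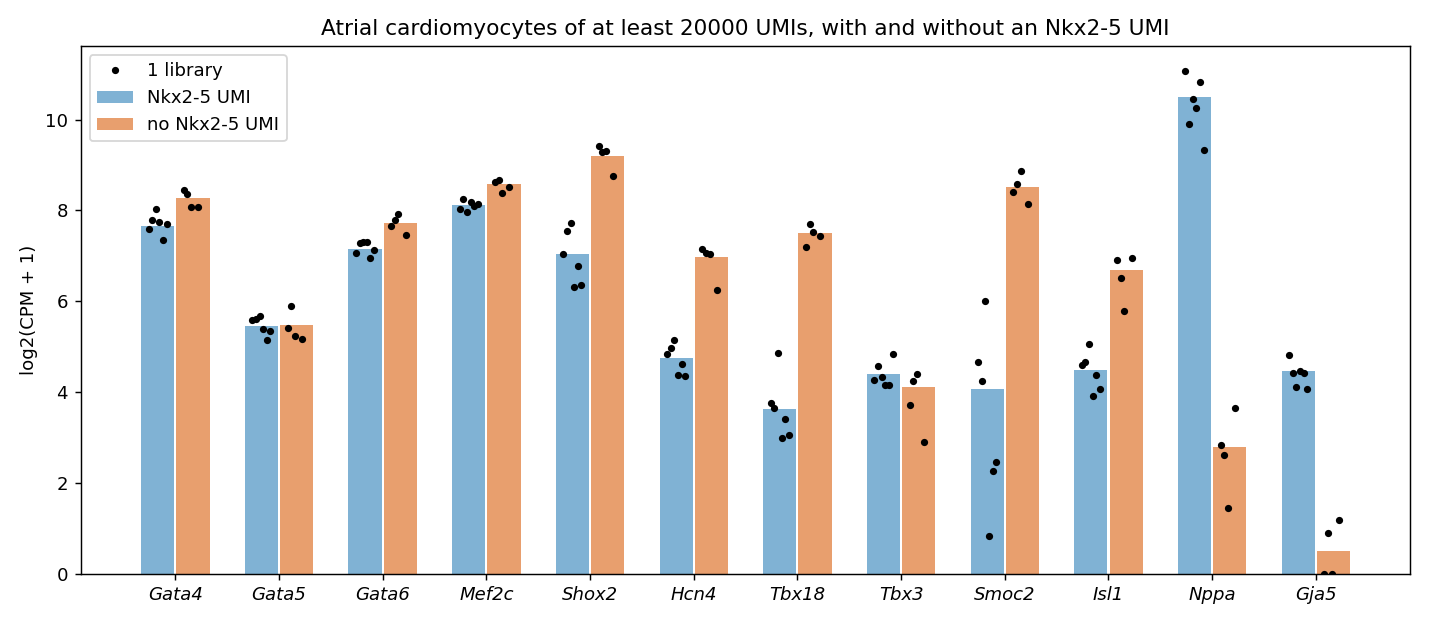
Level on the log2(CPM + 1) scale in atrial cardiomyocytes of at least 20000 UMIs with (blue, 597 cells) and without (orange, 142 cells) an Nkx2-5 UMI; dots are libraries with at least 20 cells. Gata4, Gata6, Mef2c, Shox2, Hcn4, Tbx18, Smoc2 and Isl1 are higher without Nkx2-5 in each of the 4 libraries, and Nppa and Gja5 lower.

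In the posterior second heart field gate, cells with an Nkx2-5 UMI held more RNA of the other factors and of heart muscle genes. Of 1818 cells with at least 20000 UMIs, 343 had one. Mef2c was at 179.5 CPM in them and 33.3 in the rest (5.39-fold, 5.05 to 5.75; 5 of 6 libraries), Gata5 at 88.8 against 38.0 (2.34-fold, 2.17 to 2.52; 6 of 6) and Gata6 at 208 against 95.4 (2.18-fold, 2.07 to 2.29; 5 of 6). Gata4 differed less, at 119 against 91.8 CPM (1.29-fold, 1.22 to 1.37; 5 of 6). Libraries 1 and 2 held 57 and 41 of the 343 cells and differed from the rest: Mef2c was at 182 against 94.9 CPM in library 1 and 67.6 against 118 in library 2. Hand2, a bHLH partner of GATA4, was at 111 against 22.5 CPM and higher in 6 of 6 libraries, as was Isl1, a marker of the gate (275 against 113). The troponin gene Tnnt2 was at 145 against 20.4 CPM in 5 of 6 libraries, and the median of the cardiomyocyte marker list was 3.68 against 1.29 UMIs per 10000. Whether free RNA or doublets had a part in these values was not tested. Osr1 did not follow (194 against 208 CPM, 3 of 6 libraries each way).

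The same gate was also split by a Gata4 UMI. In the 783 cells with one, Wnt2 was at 230.2 CPM against 53.4 in the other 1035 cells, and Tbx5 at 159 against 94.3, each higher in 5 of 5 libraries with enough cells. Wnt2 is also a marker of the gate, and both genes are known for venous pole and lung development. With an Nkx2-5 UMI, Wnt2 was higher too (183 against 117 CPM, 5 of 6 libraries), and Tbx5 lower (100 against 129, 4 of 6). Among other gate markers, Osr1 (242 against 176 CPM, 5 of 5) and Tbx4 (37.9 against 15.7, 4 of 5) were higher with Gata4. Foxf1 (381 against 462, 5 of 5) and Hoxb1 (12.7 against 21.5, 4 of 5) were lower. Gata5 (85.8 against 19.1 CPM), Gata6 (204 against 51.3) and Mef2c (94.8 against 38.4) were higher with Gata4 in 5 of 5 libraries, and Nkx2-5 in 4 of 5. The pooled Nkx2-5 values (22.8 against 19.05 CPM) mix libraries of unlike level and Gata4 share. Within libraries 4, 5 and 6 they were 18.0 against 9, 18.7 against 9.84 and 26.0 against 13.1 CPM, in library 1 63.1 against 58.8, and in library 3 15.4 against 23.2. Zfpm2, whose protein FOG2 binds GATA4, was at 754 against 31.7 CPM.

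In endoderm cells of at least 20000 UMIs, Gata4 was found in 1.14% of cells with an Nkx2-5 UMI and 9.82% of the rest. Library 5 weighs on this: without it endoderm held 2.11 CPM of Gata4, against 1.03 in erythroid cells, the background. The 264 cells with an Nkx2-5 UMI held 75.2 CPM of Nkx2-6, a pharyngeal relative, against 42.7 in the rest (6 of 6 libraries), and 25.6 against 66.7 CPM of Nkx2-1, the thyroid and lung factor (lower in 6 of 6). Hhex, another gene of the thyroid primordium, went the other way, at 16.2 against 5.30 CPM (3.05-fold, 2.46 to 3.78; 5 of 6 libraries). The 107 cells with a Gata4 UMI, 58 of them from library 5, held 86.6 CPM of Foxa2 against 46.3 and 18.7 CPM of Pax9, a pharyngeal pouch gene, against 85.9. Onecut1 was at 86.8 against 6.22 CPM and Ttr at 32.2 against 4.31, both named after their values were seen. These Gata4 values could be compared within 1 library only. In that library, library 5, Foxa2 was at 86.7 against 55.5 CPM and Pax9 at 1.62 against 83.7, so the pooled Pax9 value of 18.7 CPM mixes unlike libraries.

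The Isl1 and Tbx1 gate was split by Epcam. Nkx2-5 was 3.04-fold higher (2.46 to 3.78) in cells with an Epcam UMI (24.5 against 8.06 CPM), in 6 of 6 libraries. Mef2c was 2.50-fold higher (2.28 to 2.75) in cells without one (132 against 52.6 CPM), also in 6 of 6. The cells without Epcam held 174 CPM of Tcf21, a pharyngeal muscle progenitor factor, and 103 CPM of Fgf10, against 41.4 and 35.7. Gata4 was at 1.12 and 0.968 CPM, low in both.

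Partners of the factors were read from a list of 12 genes. Of these, 4 were highest in cardiomyocytes, against 7.99% of the 11904 genes with at least 10 CPM in a gate, 5 in the Rgs5 and Myocd gate (9.29% of all), 2 in the posterior second heart field gate (3.43%) and 1 in cushion mesenchyme (5.92%). Myocd and Isl1 are themselves gate markers. The list's median was 91.7 CPM in cardiomyocytes, 209.9 in the Rgs5 and Myocd gate and 3.27 in endoderm, where the medians of all genes were 19.97, 25.8 and 24.9 CPM. Tbx20 was highest in cushion mesenchyme (944 CPM), Zfpm2 in the posterior gate (343) and Tbx5 there too (123). Hand1 was at 83.2 CPM in ventricular and 1.73 in atrial cells, and Tbx5 at 35.8 and 117. Hopx, a cofactor without DNA binding, was at 146 CPM in cardiomyocytes and at most 15.98 elsewhere. Srf, the partner of MYOCD, was highest in cardiomyocytes at 24.1 CPM, with epicardium next at 17.9.

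Of 9 paralogs, 3 were highest in endoderm (4.4% of all genes), or 2 without Nkx2-1, which is a marker of that gate. In cardiomyocytes it was 0 of 9, near the 7.99% of all genes. Gata1, the red cell factor, was at 52.4 CPM in erythroid cells and at most 1.40 elsewhere. Gata2 was highest in endothelium (23.3 CPM), and Gata3 in the Rgs5 and Myocd gate (56.6) and surface ectoderm (49.6). Mef2a was broad (216 CPM in cushion mesenchyme, 196 in endothelium, 120.4 in cardiomyocytes), and Mef2b stayed at or below 7.46 CPM. Nkx2-3 (66.3 CPM) and Nkx2-6 (47.1) were highest in endoderm, and Nkx2-6 was nearly as high in the Isl1 and Tbx1 gate (43.1).

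Of 10 known targets, 6 were highest in cardiomyocytes (7.99% of all genes), or 5 without Irx4, which is a gate marker. The list's median there was 75.4 CPM. Nppa (843 CPM), Actc1 (11528), Slc8a1 (3910) and Nppb (85.7) had their next gate at 395.8 CPM or lower. Nppa was almost missing from outflow cells, at 2.16 CPM against 725 in ventricular and 1185 in atrial cells. Id2 was highest in cushion mesenchyme (526 CPM) and Gja5 in endothelium (14.3). Bmp10 was low, at 5.24 CPM in cardiomyocytes.

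Genes with the most similar pattern were ranked by Pearson's r of log2(CPM + 1) over the 16 gates, among 11747 genes outside the members and markers. The gates share libraries, so r is a description. For Nkx2-5 they were Hrc (r = 0.920), Ppargc1a (0.914), Alpk3 (0.898), Prkaa2 (0.883) and Tcea3 (0.881). For Gata4 they were Gm35533 (0.950), E130006D01Rik (0.879), Mical2 (0.878), Ecm1 (0.876) and Ugp2 (0.876). For Gata5 they were Ifitm10 (0.950), 1010001N08Rik (0.933), E130006D01Rik (0.933), Defb42 (0.926) and Tbx20 (0.900). For Gata6 they were 1010001N08Rik (0.960), which overlaps it, Ifitm10 (0.929), E130006D01Rik (0.910), Zfpm2 (0.895) and C430049B03Rik (0.894). For Mef2c they were Ap1m1 (0.874), Bag3 (0.832), Nr4a1 (0.826), Eef2 (0.809) and Atg10 (0.807). Among the members r was 0.966 for Gata5 with Gata6, 0.881 for Gata4 with Gata6, 0.862 for Gata4 with Gata5 and 0.245 for Nkx2-5 with Mef2c.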

How the data were processed

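Single-cell RNA was read from 3 vehicle and 3 streptozotocin samples at E10.5. The authors deposited raw UMI counts per gene and barcode in 1 matrix over 6 libraries. Per the submitters' processing notes, CASAVA 1.8, Cell Ranger 5.0.0, Seurat 4 and mm10 were used, and per the labels the libraries were made with a 10x 3′ kit. Library totals were 200462921 to 248426458 UMIs. Barcode suffixes could not be paired with samples, so the treatment comparison was not run and no model was fitted.

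Cells with at least 2500 genes and at most 10% mitochondrial UMIs were retained. A cell entered a gate with at least 3 markers detected and a summed marker level per 10000 UMIs above a limit. These limits were set after marker levels were seen and never from the 5 factors. Cells in several gates were left out, gates under 50 cells were not ranked, and library values need 20 cells. Levels are UMIs per 1000000 (CPM) with exact Poisson intervals, shares have exact binomial (Clopper-Pearson) intervals at 95%, and ratio intervals come from the binomial one. A count of 0 is given a limit of 3 counts. Shares were compared after thinning cells to 20000 or 5000 UMIs. Similar genes were the 5 with the highest r per factor. Other genes named are those of the fixed lists, and genes in splits of a gate were chosen after values were seen. The members and lists were chosen with earlier results of these data known. Scripts used Python 3.11.15, numpy 2.4.6, scipy 1.17.1 and pandas 2.3.3, and were tested on simulated data.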

Additional observations from a re-analysis of the deposited data

Results flagged for a closer look

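Cells that passed several gates were left out of every comparison, and some held high levels of the factors. Nkx2-5 was at 195 CPM (179 to 213) in 76 cells that passed both the cardiomyocyte and the posterior second heart field gate. Gata4 was at 491 CPM (478 to 505) and Gata5 at 112.5 CPM (106 to 119) in 267 cells that passed the endothelium and the cushion mesenchyme gate. Gata6 was at 270.4 CPM (258 to 283) in 183 cells of the cushion and neural crest mesenchyme gates. Mef2c was at 764 CPM (737 to 792) in 123 cells of the cardiomyocyte gate and the Rgs5 and Myocd gate. Each value lies above the limit that a count of 0 allows. Whether these cells are doublets was not tested.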

How the results depend on the processing

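Raw and recomputed values were compared under other cell filters, marker minimums, depths and left-out cells, and with each library left out. The Gata6 ratio of the Rgs5 and Myocd gate to cushion mesenchyme was 1.24 with at least 4 markers. The Mef2c ratio of the Rgs5 and Myocd gate to myeloid cells was 1.25 with at least 4 markers, 1.26 without recurring barcode sequences and 1.07 without cells above the 95th percentile of UMIs, and 1.00 to 1.30 with 1 library left out. The Gata4 ratio of cushion mesenchyme to epicardium was 1.88 to 1.99 with 1 library left out. The share of cardiomyocytes with all 5 factors was 46.3% with at least 1000 genes and at most 20% mitochondrial UMIs, 1.85% at 5000 UMIs, 30.8% at 20000 UMIs (an alternative added after seeing the data), 55.4% without recurring sequences, 55.8% without the deepest cells and 56.9% to 58.2% with 1 library left out. The Gata5 ratio of cardiomyocytes to endothelium, 0.942, was 0.889 (without library 5) to 1.12 (without library 1) with 1 library left out and 1.03 at 20000 UMIs. The Nkx2-5 ratio of ventricular to outflow cells, 1.32, became 0.962 with at least 4 markers. Leaving aside each factor's ratio of its highest gate to the next and the cardiomyocyte share, 60 ratios and shares had 720 values. Of these 530 stayed within their interval, 187 moved and 3 reversed, namely the 1.12, 1.03 and 0.962 just given. Leaving out 1 library moved the Gata4 ratio of endoderm to surface ectoderm most (1.09 to 5.10, lowest without library 5). The share of epicardium with all 5 factors was then 0.382% to 0.752% at full depth and 0% to 0.104% at 20000 UMIs. The cause was not tested. No paired analysis was possible because no test was run and barcode suffixes carry no sample labels. Intervals cover counting error only, and gates with few cells limit the library values.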
